A study of Mus musculus with 24 samples.

Results

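In mouse embryonic stem cells (ESCs) that had lost PRC1 catalysis, 246 transcripts rose less after 4-hydroxytamoxifen (OHT) than in cells that had lost the whole complex, or did not rise at all, and for 78 transcripts the change was the higher one. These numbers come from the 12 calibrated RNA-seq (cRNA-seq) libraries of the series, out of 24 samples, and the other 12 samples are matched gDNA-seq libraries that were not compared. The 12 libraries were taken because they make up all 4 combinations of line and treatment, with 3 replicates of each. PRC1CKO cells (E14 background, clone B9) are Ring1a-/- and carry Ring1b fl/fl alleles. PRC1CPM cells (E14 background, clone 41) carry the I50A and D53K substitutions in both copies of Ring1a, and their Ring1b alleles are floxed so that a wild-type exon is exchanged for one with I53A and D56K. Both lines carry Rosa26::ERT2-Cre and were either left untreated (0 nM) or given 800 nM OHT for 72 h, which activates the recombinase, so that untreated PRC1CKO cells lack RING1A and untreated PRC1CPM cells have a mutated RING1A. Each line is 1 clone, so a difference between the lines and a difference between the clones cannot be told apart.

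PRC1 is a Polycomb complex built on RING1A or RING1B, E3 ligases that place a single ubiquitin on a C-terminal lysine of histone H2A (H2AK119ub1). It keeps developmental genes silent in ESCs, and its canonical forms also bind H3K27me3 and join Polycomb domains into long-range contacts, while its variant forms place most of the H2AK119ub1. Removing the proteins takes away both the ligase and the scaffold, whereas a point mutation in the catalytic site takes away the ligase and leaves a complex that can assemble. The comparison asks at which genes these losses differ in their effect on transcripts, which is the interaction of line and treatment.

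The interaction was the OHT-to-untreated log2 change in PRC1CPM cells minus the same change in PRC1CKO cells, on log2(normalised read count + 1). It equals the difference of PRC1CPM from PRC1CKO cells after OHT minus their difference before it, so a value below 0 can come from a higher start in PRC1CPM cells, from a lower end, or from both. The model was fitted with limma across the 12 libraries with the replicate number as a block, and calls needed a fold above 1.5 and a p under 0.05 after Benjamini-Hochberg adjustment. The spread of each transcript was taken wholly from a trend of spread against mean level over all tested transcripts. The standard errors and p-values from limma therefore do not measure the spread of a gene's own replicates. Of the 20633 transcripts in the table, 16940 had at least 10 reads in at least 3 libraries and were tested, from 15792 gene symbols. The libraries held 14668159 to 27016156 reads on genes, with medians of 20998133 in untreated and 24004077 in OHT-treated PRC1CKO cells and 19062652 and 23164194 in the corresponding PRC1CPM cells. No transcript took more than 0.814% of a library. The values are calibrated by Drosophila cells and gDNA, and in bulk samples fewer cells of a type and less RNA per cell cannot be told apart.

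The ESC label was checked against 8 markers, of which 7 were measured. The core pluripotency factors Pou5f1, Nanog and Sox2 had at least 3230, 3028 and 3759 reads in every library, and Esrrb, Zfp42, Klf4 and Tdgf1 at least 6558, 5817, 4108 and 9579. None of the 7 was called in the interaction. The nearest was Nanog (log2 0.59, standard error 0.18, adjusted p = 0.0619 from limma), whose normalised read count was 4332 to 6313 in untreated and 4165 to 5022 in OHT-treated PRC1CKO cells, against 4105 to 4623 and 4237 to 6701 in PRC1CPM cells.

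The interaction was below 0 for 246 called transcripts (1.45% of those tested, from 222 symbols) and above 0 for 78 (0.46%, from 73 symbols). With 1 transcript for each symbol, the numbers are 220 (1.39%) and 66 (0.418%). These counts depended on the block and on how the spread was estimated. Without the replicate block limma called 4 transcripts lower and 0 higher, although 497 passed an unadjusted p under 0.05, and with the block but without the mean-variance trend it called 0 in either direction, with 1303 at an unadjusted p under 0.05. With the block, edgeR and DESeq2 on the recovered reads called 266 and 177 lower and 77 and 57 higher, and 120 of the 246 and 47 of the 78 were called by limma, edgeR, DESeq2 and with TMM scaling alike. The scale moved the split between the directions, with 124 lower and 69 higher after each library was centred on its median and 123 lower and 2860 higher without the gDNA-seq correction, under which the median of all transcripts moved from -0.018 to 0.43. All alternatives gave the same sign to the 246 and 78 transcripts, and the fit with 1 transcript for each symbol to the 220 and 66 that it held.

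The same interaction can be computed inside each set of 4 libraries that share a replicate number. It had the same sign in all 3 sets for 238 of the 246 lower transcripts (96.7%) and 77 of the 78 higher ones (98.7%), where the share over everything tested was 20.4%. The calls used those same libraries, so these shares describe the calls and do not test them. A left-out set took no part in the calls made from the other sets, but it comes from the same clones and the same calibration. Of the 294 transcripts called lower without replicate 1, 238 (81.0%) were below 0 in it, against 18.4% of all transcripts tested, whose median there was 0.29. Without replicate 2 the same held for 101 of 103 (98.1%, against 78.9% of all), and without replicate 3 for 43 of 46 (93.5%, against 58.8%). For the higher transcripts the shares were 18 of 18 (100%, against 81.6%), 52 of 61 (85.2%, against 21.1%) and 13 of 15 (86.7%, against 41.2%). The sizes were mostly smaller in the left-out set. For the lower calls the medians in left-out replicates 1, 2 and 3 were -0.42, -1.11 and -1.40, against -1.28, -1.305 and -2.01 in the others. For the higher calls they were 1.43, 0.40 and 0.66, against 1.18, 1.03 and 1.465.

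**Figure D1:**
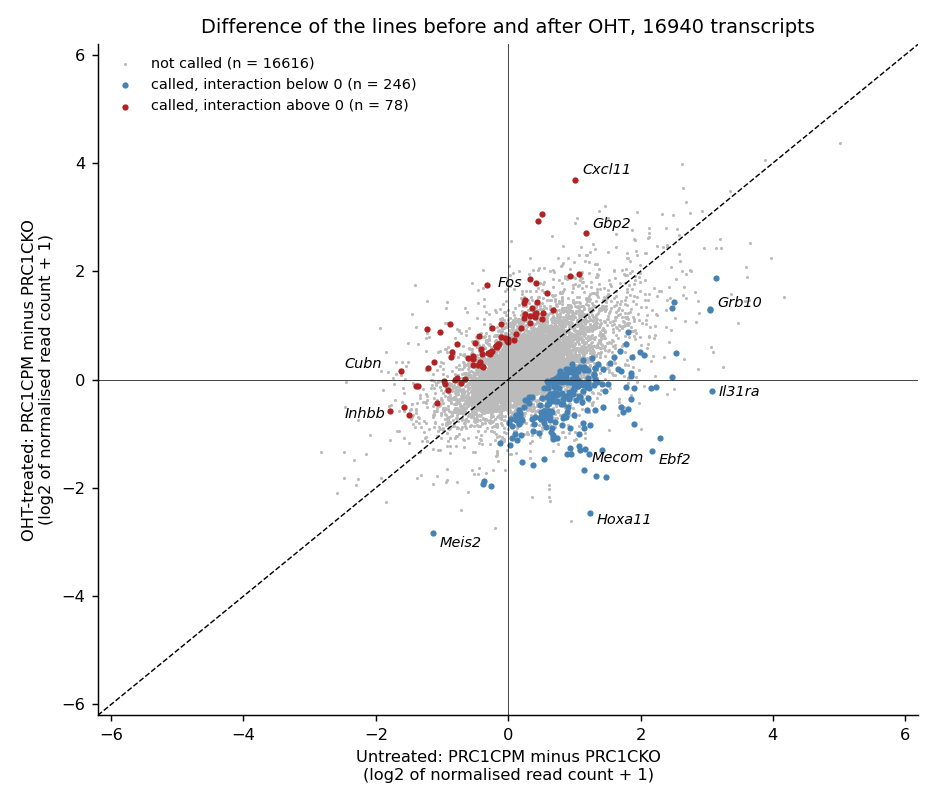
Each point is 1 of the tested transcripts, with the log2 difference of PRC1CPM from PRC1CKO cells before OHT on the horizontal axis and after OHT on the vertical axis, and its distance below or above the dashed diagonal is the interaction. The 246 blue points lie mainly to the right of 0 on the horizontal axis, with 241 of them above 0, called different or not. The 78 red points lie above the diagonal, 67 of them above 0 on the vertical axis. Of all 16940 points 11509 lie above 0 on the horizontal and 10992 on the vertical axis.

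Transcripts with a lower interaction were mainly genes that start higher in PRC1CPM cells. Of the 246, 155 (63.0%) differed between the lines only in untreated cells, 45 (18.3%) only after OHT, 28 (11.4%) in both states and 18 (7.32%) in neither. By size alone, the untreated difference was the larger in 176 and the OHT-treated difference in 70. The 155 were all higher in untreated PRC1CPM cells and the 45 all lower in OHT-treated ones, and 20 of the 28 were higher before and lower after. In the background, 9.63% of the transcripts tested were called higher and 1.49% lower in untreated PRC1CPM cells, and 6.68% higher and 1.37% lower in OHT-treated ones. Without the gDNA-seq correction the untreated background turned, with 674 of all transcripts called higher and 903 lower in PRC1CPM cells (1631 and 253 with it), and after OHT it was 2350 and 118. Of the 246, 241 lay above 0 in untreated cells and 182 were called higher, whereas TMM gave 235 and 138, and leaving out the correction 220 and 102. Over all 16940 transcripts, those above 0 in untreated cells numbered 11509, with TMM 8616 and without the correction 5413. The classes are cut from the libraries that gave the interaction and are a description with no test.

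Nearly all of the 246 respond to loss of the complex. In PRC1CKO cells 243 rose after OHT (20.3% of all transcripts tested rose) and 3 were not called, and the median change was 2.63. The change in PRC1CKO cells is part of the interaction that chose the 246, so this share describes the choice and tests nothing. In PRC1CPM cells 208 of them rose (17.9% of all), 35 were not called and 3 fell, with a median of 1.45. The median interaction was -1.16, made of a median untreated difference of 0.87 and a median OHT-treated difference of -0.31. Among the 155 the OHT-treated lines had nearly the same median level (-0.06), after a start that was 0.99 higher in PRC1CPM cells, whereas among the 45 the start differed by 0.36 and the end by -0.82. All 3435 transcripts that rose in PRC1CKO cells had a median interaction of -0.32. Lists with many rising genes are therefore also to be read against 243 lower calls among these 3435.

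**Figure D2:**
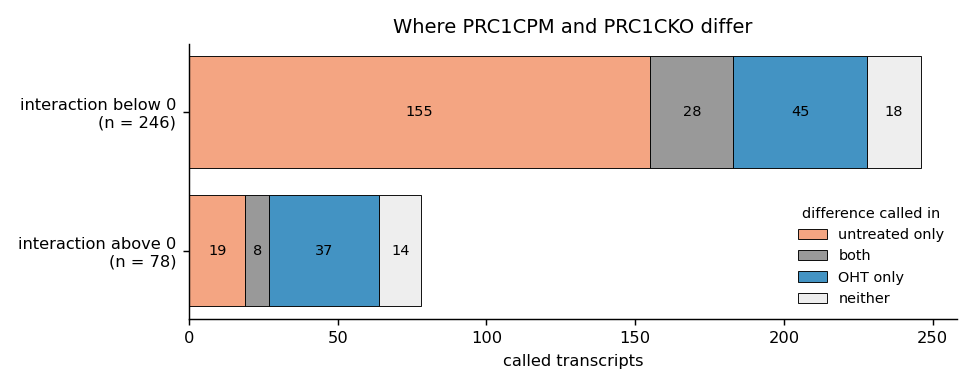
The bars count called transcripts by the state in which PRC1CPM and PRC1CKO cells were called different, for interactions below 0 (n = 246) and above 0 (n = 78). The untreated-only class is the longest part of the first bar (155) and the OHT-only class of the second (37).

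The higher transcripts had another make-up. Of the 78, 37 (47.4%) differed only after OHT, 19 (24.4%) only before it, 8 (10.3%) in both states and 14 (17.9%) in neither. The 37 were all higher in OHT-treated PRC1CPM cells and the 19 all lower in untreated ones. In PRC1CKO cells 53 of the 78 fell after OHT (4.86% of all tested fell), 23 were not called and 2 rose, while in PRC1CPM cells 46 were not called, 16 fell (2.72% of all) and 16 rose. The median change was -0.85 in PRC1CKO and 0.07 in PRC1CPM cells. These shares and medians again follow in part from how the 78 were chosen and are no test. The commonest combination, in 35 of the 78, was a fall without the complex and no call without catalysis, and a change that was not called is not shown to be absent.

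Grb10 had the interaction with the smallest adjusted p. It encodes an adaptor that restrains insulin and IGF receptor signalling and is imprinted, and its transcript NM_001177629 starts on the minus strand of chromosome 11. Its normalised read count was 682, 301 and 323 in the untreated and 3239.7, 2212 and 2232 in the OHT-treated PRC1CKO libraries (replicates 1, 2 and 3). In PRC1CPM cells it was 4071, 3837 and 2464 untreated and 7664, 5576 and 5475 after OHT. The lines did not overlap in either state, and untreated PRC1CPM cells already lay at the level that PRC1CKO cells reached after OHT. The log2 change was 2.63 in PRC1CKO and 0.87 in PRC1CPM cells, an interaction of -1.77 (standard error 0.19, adjusted p = 2.7e-17 from limma, and 0.027 without the block). Transcripts on chromosome 11 were higher in PRC1CPM cells as a whole, with a median difference of 0.45 untreated and 0.42 after OHT, and the part of this in Grb10 was not tested.

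Ebf2 and Mecom showed crossing levels. Ebf2 encodes an early B cell factor, a transcription factor of brown fat and neuronal lineages. It had 5.96, 6.16 and 1.69 in untreated and 934, 680.3 and 692 in OHT-treated PRC1CKO libraries, against 15.3, 32.04 and 21.7 and 397, 319 and 226 in PRC1CPM libraries. Every untreated PRC1CPM library was above every untreated PRC1CKO library, and every OHT-treated one was below. The log2 change was 7.22 and 3.73, and the interaction was -3.48 (standard error 0.38, adjusted p = 3.1e-16 from limma, and 0.00073 without the block). Mecom, which encodes the zinc finger factor EVI1, went from 17.9, 20.01 and 25.4 to 879, 589.6 and 646 in PRC1CKO and from 61.4, 59.4 and 29.8 to 406, 269.8 and 211 in PRC1CPM cells. It crossed in the same way with no overlap in either state, with an interaction of -2.44 (standard error 0.32, adjusted p = 1.1e-10 from limma, and 0.027 without the block). Ebf2, Mecom and 2 transcripts of Grb10 are the 4 called without the block.

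**Figure D3:**
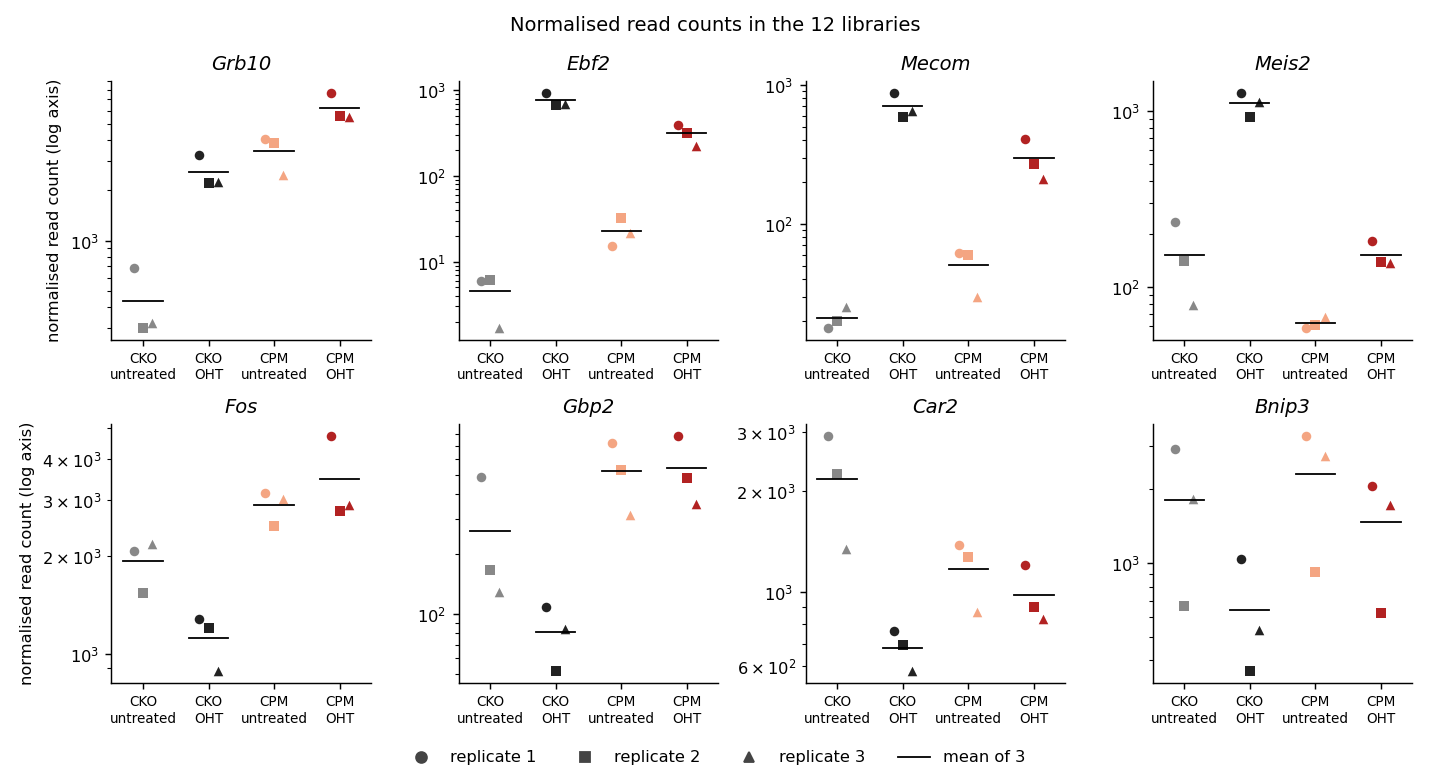
Normalised read count (log axis, with a range of its own in each panel) of 8 genes in the 12 libraries, with the replicate number as the marker and the mean of 3 as a line. Ebf2 and Mecom cross between the lines, Grb10 starts and ends higher in PRC1CPM cells, Meis2 starts and ends lower, and Fos, Gbp2, Car2 and Bnip3 have their lowest mean in OHT-treated PRC1CKO cells.

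The promoters below were picked as examples of genes of either direction and are not typical of the groups. They run from 250 bases before to 50 bases after the annotated start (RefSeq, GRCm38.p6), 5′ to 3′ on the gene's strand, and capitals mark each CG dinucleotide. The first 3 belong to genes with an interaction below 0 and the last 3 to genes with one above 0. They are Grb10 (chr11:12037371-12037670, minus strand, 45 CG), Barx1 (chr13:48662786-48663085, plus strand, 50 CG), Hoxa11 (chr6:52245761-52246060, minus strand, 15 CG), Fos (chr12:85473640-85473939, plus strand, 20 CG, whose start lies 11 bases from that in the deposited table), Cubn (chr2:13491827-13492126, minus strand, 5 CG) and Gbp2 (chr3:142620413-142620712, plus strand, 2 CG).
Grb10: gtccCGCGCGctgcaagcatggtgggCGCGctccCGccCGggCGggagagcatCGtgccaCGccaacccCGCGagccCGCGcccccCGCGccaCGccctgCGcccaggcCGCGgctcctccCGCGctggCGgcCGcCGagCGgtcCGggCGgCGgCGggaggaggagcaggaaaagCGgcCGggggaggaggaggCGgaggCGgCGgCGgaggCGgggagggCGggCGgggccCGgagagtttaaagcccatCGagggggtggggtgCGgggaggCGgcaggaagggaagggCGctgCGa
Barx1: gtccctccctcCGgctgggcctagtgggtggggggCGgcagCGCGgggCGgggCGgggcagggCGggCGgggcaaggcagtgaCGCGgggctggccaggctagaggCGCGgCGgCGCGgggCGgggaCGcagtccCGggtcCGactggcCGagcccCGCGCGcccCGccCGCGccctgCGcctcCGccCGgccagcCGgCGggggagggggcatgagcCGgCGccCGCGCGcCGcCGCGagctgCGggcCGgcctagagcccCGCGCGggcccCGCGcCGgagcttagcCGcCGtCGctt
Hoxa11: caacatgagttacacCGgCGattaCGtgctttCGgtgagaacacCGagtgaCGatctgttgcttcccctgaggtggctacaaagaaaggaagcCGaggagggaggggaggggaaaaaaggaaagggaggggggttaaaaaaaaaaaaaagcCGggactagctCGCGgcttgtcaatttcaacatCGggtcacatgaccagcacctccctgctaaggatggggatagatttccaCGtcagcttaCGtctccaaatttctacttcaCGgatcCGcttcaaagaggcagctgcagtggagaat
Fos: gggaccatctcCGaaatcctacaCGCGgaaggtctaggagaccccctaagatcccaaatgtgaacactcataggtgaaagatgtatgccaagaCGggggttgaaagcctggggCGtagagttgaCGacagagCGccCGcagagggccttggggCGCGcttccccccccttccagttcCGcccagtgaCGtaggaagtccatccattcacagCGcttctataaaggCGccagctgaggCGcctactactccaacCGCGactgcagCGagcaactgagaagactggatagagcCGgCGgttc
Cubn: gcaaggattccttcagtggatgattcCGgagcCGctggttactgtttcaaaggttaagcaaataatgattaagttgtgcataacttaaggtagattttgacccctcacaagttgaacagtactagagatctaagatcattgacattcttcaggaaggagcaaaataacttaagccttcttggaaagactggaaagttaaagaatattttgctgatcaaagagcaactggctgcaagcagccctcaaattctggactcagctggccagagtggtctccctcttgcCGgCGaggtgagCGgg
Gbp2: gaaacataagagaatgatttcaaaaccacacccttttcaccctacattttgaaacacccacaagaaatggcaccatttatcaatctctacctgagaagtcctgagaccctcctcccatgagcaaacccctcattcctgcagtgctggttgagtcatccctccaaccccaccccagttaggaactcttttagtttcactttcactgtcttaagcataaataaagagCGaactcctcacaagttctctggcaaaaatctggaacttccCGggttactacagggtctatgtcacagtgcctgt

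Over windows of the same 300 bases at the deposited starts, the median number of CG was 22 for the 220 symbols with a lower interaction and 12.5 for the 66 with a higher one, against 19 over all tested, 18 over those that rose in PRC1CKO cells and 13 over those that fell. Within the lower group it was 26 in the untreated-only class and 18 in the OHT-only class. The quartiles were 14 and 34 in the lower group and 7.25 and 23 in the higher group, which overlap, and 10 and 28 over all tested. Of the promoters shown above, Grb10 and Barx1 lie above the quartiles of their group and Cubn and Gbp2 below those of theirs. The median gene span was 108.5 kb in the lower group and 14.4 kb in the higher group, against 22.2 kb over all tested, 34.4 kb over those that rose and 17.9 kb over those that fell. These are descriptions of groups that the interaction chose, and the counting error of a gene depends on its length and level. Non-coding transcripts made up 9 of the 220 (4.09%) and 2 of the 66 (3.03%), against 6.28% of all tested.

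Developmental transcription factors held many of the lower calls. The list of NKX, Dlx, Msx, Lhx, Irx and other homeobox factors holds genes that place cells along the body axes and in organ fields. Of its 87 tested genes 13 had an interaction called below 0 and 0 one called above 0, against 1.39% and 0.418% of all symbols. The list's median interaction was -0.88, against -0.018 over everything tested and -0.32 over the 3435 transcripts that rose in PRC1CKO cells. In untreated cells 28 of the 87 were higher in PRC1CPM (9.63% of all transcripts were), and after OHT 77 rose in PRC1CKO and 71 in PRC1CPM cells (20.3% and 17.9% of all). Of the Pax and Eya factors with the sine oculis homologues, regulators of eye, muscle, ear and kidney development, 7 of 18 were called below 0 and 0 above 0 (median -0.97). In the Zic, POU, Ebf, Snail, PRDM and nuclear receptor list it was 11 of 66 and 0 (median -0.41), and in the forkhead, GATA and T-box list 4 of 40 and 0 (median -0.53). Of 39 proneural, Olig and mesoderm bHLH factors, 0 were called below 0 and 1, Id2, above 0, and of 15 Sox factors outside the pluripotency network 2 rose less. These counts depended on the scale. Under TMM scaling the homeobox list had 5 called below 0, the Pax, sine oculis and Eya list 1, the Zic and POU list 5, the forkhead list 4 and the Sox list 0. Without the gDNA-seq correction the median of the Zic and POU list was 0.041, beside 0.43 for all transcripts. Without the block, 2 of the Zic and POU list and 1 imprinted gene were the only list members called.

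The untreated-only pattern was clear at Barx1, a homeobox factor of stomach and tooth. It had 8.94, 3.08 and 6.76 in untreated PRC1CKO libraries and 46.03, 22.6 and 24.4 in untreated PRC1CPM libraries, which did not overlap. The OHT-treated libraries had 269, 222 and 229 and 293, 157 and 217, which did. The interaction was -2.31 (standard error 0.41, adjusted p = 1.3e-05 from limma), with differences of 2.16 before and -0.15 after OHT. Sox9 (-2.37), the regulator of cartilage and testis, and Tbx18 (-1.95), of the heart and ureter, fell in the same class, as did Pax5 (-1.78), the B cell factor. Their untreated differences were 2.24, 1.43 and 1.85, and their OHT-treated ones -0.14, -0.51 and 0.07, of which none was called.

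Some of these values rest on few reads or on 1 library. Tlx2, a neural crest homeobox factor, had an interaction of -3.36 on normalised read counts of 2.98, 0 and 0 in untreated PRC1CKO and at most 25.3 in any library, and passed in 5 of the 12 refits with 1 library dropped. Il31ra, a cytokine receptor chain, had 141, 5.65 and 5.42 in untreated PRC1CPM cells, so that replicate 1 alone stood out, and 5.42, 14.8 and 10.5 and 8.69, 9.28 and 6.57 in the OHT-treated lines. Its interaction of -3.28 was called in 6 of the 12. Otx1, a head and brain homeobox factor, had 8.94, 0 and 11.8 in untreated PRC1CKO cells, and its interaction of -2.22 was -1.11, -5.12 and -0.43 in replicate numbers 1, 2 and 3 and was not called by DESeq2 or with TMM. Across the 12 fits the number called lower ranged from 106, without OHT-treated PRC1CKO replicate 3, to 379, without untreated PRC1CKO replicate 1, and 58 of the 246 were called in every fit. The number called higher ranged from 16 without OHT-treated PRC1CKO replicate 1 to 151 without OHT-treated PRC1CKO replicate 2, and 13 of the 78 were called in every fit.

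The OHT-only pattern was clear at Pax3, the paired-box factor of neural crest and muscle progenitors. Its normalised read count was 8.94, 9.23 and 8.46 in untreated PRC1CKO and 12.8, 5.65 and 21.7 in untreated PRC1CPM libraries, which overlapped. It was 661, 549 and 644 and 264, 196 and 171 after OHT, so that the lowest PRC1CKO library was above the highest PRC1CPM library. The differences were 0.37 before and -1.57 after OHT, with an interaction of -1.94 (standard error 0.40, adjusted p = 0.00028 from limma). Pax6 (-1.78), a master regulator of the eye, and Meis1 (-1.08), a HOX cofactor, were also in this class, as was Grin3a (-2.004), an NMDA receptor subunit. Six3os1 (-2.81), the transcript antisense to the forebrain factor Six3, was in it too with 0 reads in 1 untreated PRC1CKO library and no call by DESeq2, and since the counting is not stated to use strand its reads and those of Six3 cannot be told apart.

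Pax7, which marks muscle satellite cells, differed in both states. It had 11.9, 14.6 and 5.07 in untreated PRC1CKO and 31.96, 22.6 and 18.98 in untreated PRC1CPM libraries. With OHT these levels became 163, 118 and 149 and 63.7, 50.3 and 50.4. The PRC1CPM libraries were all higher before OHT and all lower after it, with an interaction of -2.59 (standard error 0.48, adjusted p = 2.9e-05 from limma). Isl2, a motor neuron homeobox factor, and Sim2, a bHLH-PAS factor of the midline, were also called in both states, with interactions of -2.72 and -2.07, but overlapped between the lines in untreated cells. For Isl2 it was -6.11, -0.91 and -1.13 in replicate numbers 1, 2 and 3, with 0 reads in the first untreated PRC1CKO library. Pax9, a tooth and pharyngeal factor, rose in both lines but was not called in the interaction (-1.51, adjusted p = 0.37 from limma).

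Meis2 was the single gene of the 246 that was called lower in PRC1CPM cells in both states. It encodes a homeodomain cofactor of HOX and PAX proteins. It had 235, 140.1 and 79.5 in untreated and 1266, 920.1 and 1123 in OHT-treated PRC1CKO libraries, and 58.8, 61.3 and 67.8 and 183, 139 and 137 in the corresponding PRC1CPM libraries. OHT-treated PRC1CPM cells thus stood near the level of untreated PRC1CKO cells. The difference of the lines was -1.13 before and -2.84 after OHT, and the interaction -1.71 (standard error 0.28, adjusted p = 7.4e-07 from limma).

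The 4 Hox clusters, whose genes set position along the body axis, had different medians. In the HoxD cluster all 9 tested genes had an interaction below 0 (8483 of all 15792 symbols did), 4 of them called (44.4%, against 1.39% of all), with a median of -1.45, and 5 of the 9 were lower in OHT-treated PRC1CPM cells (206 of all 15792 symbols were). With TMM 0 of them were called at the same median of -1.45, and without 1 library Hoxd13 was called in 2, Hoxd4 in 4, Hoxd3 in 8 and Hoxd11 in 11 of the 12 fits. Of the 4, edgeR and DESeq2 called only Hoxd13. The HoxC cluster had a median of -1.18 over 9 genes with 0 called, and 4 of them were lower in OHT-treated PRC1CPM cells, to be read against the same 206 of 15792. The HoxA and HoxB clusters had medians of 0.11 over 12 genes and 0.37 over 8, with 1 called lower in each (8.33% and 12.5%). After OHT 4 HoxA genes and 1 HoxB gene were lower in PRC1CPM cells, against the same 206. In untreated cells 4 HoxA and 2 HoxB genes already were, against 227 of all 15792 symbols. The HoxB call, Hoxb7, was lost in edgeR, in DESeq2, with TMM and without the gDNA-seq correction. It was kept in 5 of the 12 fits without 1 library. The difference between clusters was not tested. Relative to the median of all transcripts in the same set, the HoxD median was -1.26, -1.05 and -1.99 in replicate numbers 1, 2 and 3 and the HoxC median -0.85, -1.31 and -1.26, whereas the HoxA median was 0.65, 0.17 and -0.67 and the HoxB median 0.37, -0.039 and -0.46.

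Hoxd11, a limb and kidney gene, had 0, 4.62 and 0 in untreated PRC1CKO and 5.11, 1.88 and 4.07 in untreated PRC1CPM libraries. After OHT it had 189, 166 and 175 and 46.3, 33.2 and 84.3, without overlap. The interaction was -3.11 (standard error 0.67, adjusted p = 0.00074 from limma), and those of the other called members Hoxd3, Hoxd4 and Hoxd13 were -2.19, -2.38 and -1.45. For Hoxd3 it was -0.95, -0.72 and -4.90 in replicate numbers 1, 2 and 3, with 0 reads in the third untreated PRC1CKO library. Hoxa11, the counterpart of Hoxd11 in the HoxA cluster, had 0 reads in all 3 untreated PRC1CKO libraries, 2.56, 0 and 2.71 in untreated PRC1CPM libraries and 120.2, 65.7 and 96.8 and 20.3, 10.8 and 17.5 after OHT in PRC1CKO and PRC1CPM cells. Its fitted interaction of -3.71 therefore depends on the pseudocount, whereas its OHT-treated difference of -2.47 does not rest on the 0 values. Hoxc11 had a similar OHT-treated difference (-2.74) but was not called in the interaction (-2.55, adjusted p = 0.21 from limma). Among the Hox-linked factors Cdx1, a caudal homeobox gene that activates Hox genes, went the other way (1.27), from a start of 375, 109 and 143 in PRC1CKO and 130.4, 49.01 and 48.8 in PRC1CPM cells to an end of 843, 567 and 581 and 863, 373 and 663.

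**Figure D4:**
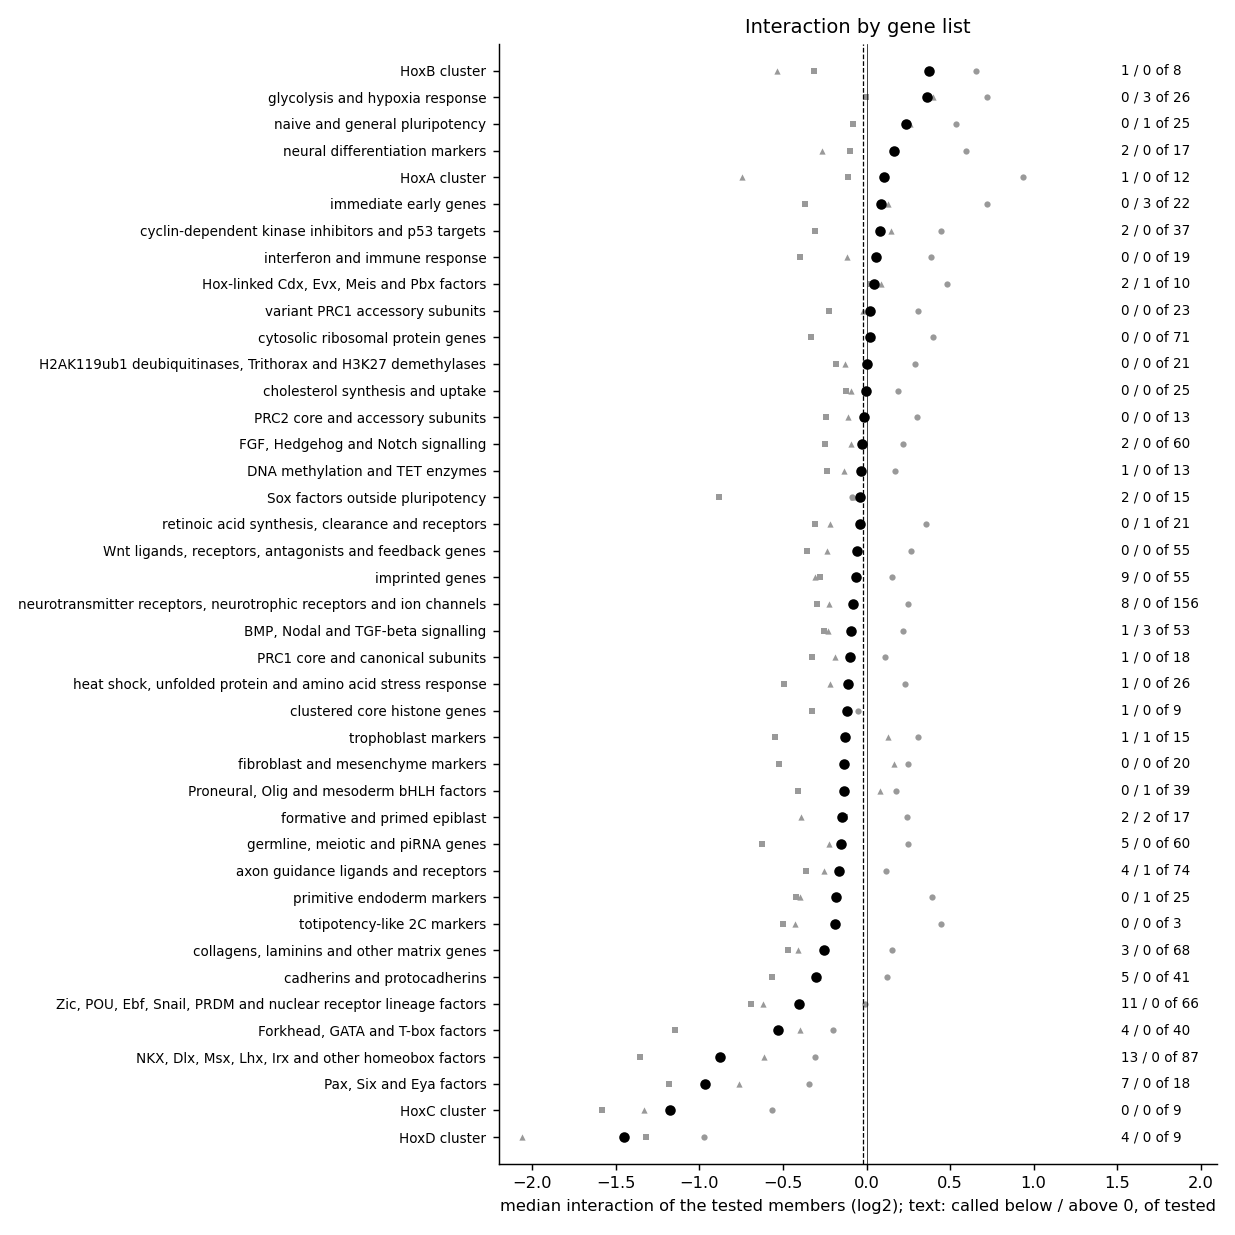
Median interaction of the tested members of each gene list over all 12 libraries (black) and within replicate numbers 1 (circle), 2 (square) and 3 (triangle), with the numbers called below and above 0 of those tested at the right. The dashed line is the median of all tested genes, and the lowest lists are HoxD (-1.45), HoxC (-1.18) and the Pax, sine oculis and Eya factors (-0.97).

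Imprinted genes, expressed from 1 parental allele, gave 9 lower calls (16.4%, against 1.39% of all symbols) and 0 higher among 55 tested, while their median interaction was -0.064, close to that of all genes. Beside Grb10 they include Sfmbt2, itself a Polycomb protein gene, which had 4286, 1934 and 1379 in untreated and 12930.0, 8432 and 10910.0 in OHT-treated PRC1CKO libraries. In PRC1CPM cells it had 5316, 3302 and 3628 and 9488, 6982 and 6983, and the lines overlapped in both states. Its interaction was -1.28 (standard error 0.18, adjusted p = 8.1e-09 from limma, and 0.47 without the block). Cdkn1c, the imprinted cell cycle inhibitor p57, had -1.12 with higher levels in PRC1CPM cells in both states (1.77 and 0.66). Rasgrf1, a Ras exchange factor, had -2.33, a call kept in 6 of the 12 fits without 1 library and lost in edgeR, DESeq2 and TMM. Igf2os, antisense to the growth factor gene Igf2, had -2.29, where reads of the pair cannot be told apart. Cdkn2a, which encodes p16 and p19ARF and is a long-known Polycomb target, had -1.39.

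Of 60 germline, meiotic and piRNA genes, 5 had an interaction called below 0 (8.33%, against 1.39% of all symbols) and 0 were called above 0. In PRC1CKO cells 35 of the 60 rose after OHT, and of all 3435 transcripts that rose there 243 were called lower. Sycp1, a part of the synaptonemal complex, had 295, 210.1 and 180.1 in untreated PRC1CKO and 358, 361 and 312 in untreated PRC1CPM libraries. Treatment brought it to 1729, 1253 and 1621 and 1154, 831 and 957, and the lines crossed without overlap in either state. Its interaction was -1.26 (standard error 0.22, adjusted p = 4.1e-06 from limma). Tex101, a testis membrane protein gene, had -1.32 in the untreated-only class, and Mael, of the piRNA pathway, -0.85 in neither. Hormad2, a chromosome axis protein gene on chromosome 11, was higher in PRC1CPM cells throughout (1.80 before and 0.88 after OHT) and rose in PRC1CKO cells (1.06) but was not called in PRC1CPM cells (0.13), with an interaction of -0.93.

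Among 41 cadherins and protocadherins 5 rose less (12.2%, against 1.39% of all symbols, and 3 genes with TMM) and 0 were called above 0 (median -0.30). In PRC1CKO cells 29 of the 41 rose, as did 40 of 68 matrix genes, 101 of 156 receptors and channels and 46 of 74 axon guidance genes. Of all 3435 transcripts that rose there 243 were called lower, and their median interaction of -0.32 was near that of the cadherins. An excess of these lists over rising genes in general was not tested. Fat3, an atypical cadherin of neurons, had 140.0, 77.7 and 64.3 in untreated PRC1CKO and 168, 273 and 186 in untreated PRC1CPM libraries. In OHT-treated cells it had 1428, 1339 and 1345 and 1069.5, 920.1 and 799, with no overlap in either state, and its interaction was -1.76 (standard error 0.23, adjusted p = 1.3e-10 from limma, and 0.099 without the block). Within replicate numbers 1, 2 and 3 the interaction of Fat3 was -0.67, -2.34 and -2.27. Of 68 collagens, laminins and other matrix genes 3 rose less (4.41%), among them Col2a1 (-1.03), the cartilage collagen. Of 156 neurotransmitter receptors, neurotrophic receptors and ion channels 8 rose less (5.13%, and 4 genes with TMM) and 0 were called above 0, among the 8 Kcnma1 (-1.11), a calcium-activated potassium channel, and Gabra4 (-1.07), a GABA receptor subunit. Of 74 axon guidance genes 4 rose less (5.41%, and 1 gene with TMM), including Nrp2 (-0.68), a semaphorin receptor, and 1, the semaphorin gene Sema3e (0.75), was called above 0 with no call in either line alone. Neither Nrp2, which was 0.078 in replicate number 1, nor Sema3e was called by DESeq2 or with TMM.

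Of 18 Polycomb genes for PRC1 core and canonical subunits 1 was called (5.56%, against 1.39% of all symbols), Bmi1, which encodes PCGF4. Bmi1 had 161, 98.5 and 154 in untreated PRC1CKO and 183, 146 and 214 in untreated PRC1CPM libraries, which overlapped. After OHT it had 760.2, 703 and 728 and 523, 319 and 552, which did not, and its interaction was -1.10 (standard error 0.25, adjusted p = 0.0016 from limma). Ring1 (-0.40, adjusted p = 0.90 from limma) and Rnf2 (-0.20, adjusted p = 1.0), which encode RING1A and RING1B, were not called. Ring1 had 313, 204 and 166 in untreated and 281, 250.8 and 229 in OHT-treated PRC1CKO libraries, and 179, 182 and 125 and 161, 111 and 148 in PRC1CPM libraries. It was thus not lower in the Ring1a-/- line, and after OHT it was called lower in PRC1CPM cells (-0.86). In PRC1CKO cells the first exons of Ring1a are deleted, and a count over the whole gene is no check of this deletion or of the exon lost or exchanged in Ring1b. Of 23 variant PRC1 subunits, 13 PRC2 subunits and 21 deubiquitinases, Trithorax proteins and H3K27 demethylases, 0 were called in either direction by limma, and the largest values were -0.48 for Bcor, -0.22 for Phf19 and -0.28 for Setd1b. Dnmt3b, the de novo DNA methyltransferase, was the 1 called of 13 DNA methylation genes (-0.67, adjusted p = 0.021 from limma).

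Signalling genes were called in both directions. Fgfr2, an FGF receptor, rose in PRC1CKO cells (1.38) and was not called in PRC1CPM cells (0.22), with an interaction of -1.16 (standard error 0.19, adjusted p = 7.4e-07 from limma). Of 60 FGF, Hedgehog and Notch genes it was 1 of 2 called below 0, with the Hedgehog decoy receptor gene Hhip (-1.05), and 0 were called above 0. Of 53 BMP, Nodal and TGF-beta genes 1 rose less, the BMP ligand gene Gdf7 (-2.42), and 3 were above 0. The shares were 3.33% below 0 in the former list and 1.89% below and 5.66% above 0 in the latter, against 1.39% and 0.418% of all symbols. The 3 above 0 were Id2 (1.24), a helix-loop-helix inhibitor induced by BMP, Inhbb (1.06), an activin subunit, and Lefty1 (0.62), a Nodal antagonist. Lefty1 was -0.034 in replicate number 3, was not called by DESeq2 or with TMM, and was called in 3 of the 12 fits without 1 library. Of 55 Wnt genes 0 were called by limma, with the largest value at Rspo2 (1.43, adjusted p = 0.53), and of 21 retinoic acid genes 1 (4.76%) was above 0, the retinaldehyde reductase gene Dhrs3 (0.88). Dhrs3 was not called by DESeq2 or with TMM, and it was called in 6 of the 12 fits without 1 library.

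Genes with an interaction above 0 included immediate early genes, which answer signals without new protein synthesis. Of 22 tested, 3 were called above 0 (13.6%, against 0.418% of all symbols) and 0 below, while the list's median was 0.086. Fos, a subunit of AP-1 that is induced within minutes of growth factor signals, had 2072, 1537 and 2182 in untreated and 1278, 1197 and 883 in OHT-treated PRC1CKO libraries. In PRC1CPM cells it had 3156, 2477 and 3011 and 4725, 2775 and 2895. Every PRC1CPM library was above every PRC1CKO library in the same state, and the gap was wider after OHT. Fos fell in PRC1CKO cells (-0.79) and was not called in PRC1CPM cells (0.23), with an interaction of 1.02 (standard error 0.19, adjusted p = 1.9e-05 from limma, and 0.66 without the block). Its partner Fosb (0.98) was likewise higher in PRC1CPM cells in both states, and Egr1 (0.95), a zinc finger early response factor, only after OHT.

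Gbp2, an interferon-inducible GTPase, fell in PRC1CKO cells alone. It had 489, 166 and 129 in untreated and 108, 51.8 and 83.7 in OHT-treated PRC1CKO libraries, and 724, 532 and 314 and 784, 482 and 356 in PRC1CPM libraries. The untreated lines overlapped and the OHT-treated ones did not. The log2 change was -1.48 and 0.05, with an interaction of 1.53 (standard error 0.26, adjusted p = 2.7e-06 from limma). Cxcl11, an interferon-inducible chemokine, had the highest interaction above 0 of all called (2.68), on normalised read counts of at most 52.1. Of the 19 tested genes of the interferon list, which does not hold either gene, 0 were called by limma, and its median was 0.055. Cysltr1 (2.47), a leukotriene receptor, and Hrh3 (1.91), a histamine receptor, fell in PRC1CKO cells as well.

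Car2, a carbonic anhydrase that buffers intracellular pH, was lower in PRC1CPM cells before OHT. It had 2915, 2250.2 and 1344 in untreated PRC1CKO and 1381, 1269 and 869 in untreated PRC1CPM libraries. After OHT it had 766, 692 and 581 and 1204, 898 and 829, and the untreated lines overlapped while every OHT-treated PRC1CPM library was above every PRC1CKO one. Its interaction was 1.36 (standard error 0.20, adjusted p = 8.1e-09 from limma, and 0.29 without the block). Its relative Car3 had 1.91 at low levels. Cubn, which encodes the endocytic receptor cubilin of visceral endoderm, had 1539, 1019.7 and 235 in untreated and 166, 104 and 58.4 in OHT-treated PRC1CKO libraries, and 171, 277 and 266 and 88.8, 99.7 and 159.9 in PRC1CPM libraries. The third untreated PRC1CKO library was far below the other two and within the PRC1CPM range, beside an interaction of 1.78. Cubn was called in 11 of the 12 fits without 1 library but not with TMM.

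Factors of the pluripotent and early lineage states were split. Prdm14, a regulator of naive pluripotency, was the 1 called of 25 pluripotency genes (0.91, 4% of the list against 0.418% of all symbols above 0), and the list's median was 0.24. The list's summed normalised read count was 109207 to 160783 in untreated and 93072 to 106892 in OHT-treated PRC1CKO libraries, against 94220 to 131666 and 69824 to 117015 in PRC1CPM libraries, with Tdgf1 its most abundant gene at 16.2%. Of 17 formative and primed epiblast genes 2 were below 0 (Grhl2 and Dnmt3b) and 2 above, 1 of them Lefty1 (11.8% in each direction, against 1.39% and 0.418% of all symbols). Tfap2c, a trophoblast and germ cell factor, had 1414, 1618 and 1269 in untreated and 948, 930.2 and 842 in OHT-treated PRC1CKO libraries. In PRC1CPM cells it had 882, 1016 and 922 and 1398, 1029 and 1204, lower than PRC1CKO before OHT and higher after it without overlap, with an interaction of 1.01 (standard error 0.20, adjusted p = 8e-05 from limma).

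Markers of other cell types were checked beside these genes, where the shares of all symbols called were again 1.39% below and 0.418% above 0. Of 25 primitive endoderm markers 1 was called (Cubn), of 15 trophoblast markers 2 in opposite directions (Esx1 at -1.30 and Tfap2c), of 20 fibroblast and mesenchyme markers 0 by limma (the largest value was 1.33 for Lox, adjusted p = 0.075), of 25 totipotency-like markers 0 (3 were in the table), and of 17 neural markers 2 below 0 (Pax6 and Nes at -0.83). No list had a member at 0 in all 12 libraries. The summed levels of the trophoblast list ranged from 7034 to 17514 in untreated and 9140 to 13448 in OHT-treated PRC1CKO libraries, and from 9249.6 to 15289 and 11098 to 20051 in PRC1CPM libraries, with Peg10 at 67.2% of it. Their part in the interaction was not tested.

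Of the glycolysis and hypoxia response genes, which supply energy when oxygen is short, most shared a direction. Of 26 tested, 2 had an interaction below 0, against 8483 of all 15792 symbols, 3 were called above 0 (11.5%, against 0.418%) and the median was 0.36. After OHT 16 of them fell in PRC1CKO and 2 in PRC1CPM cells (4.86% and 2.72% of all transcripts did), and 14 were higher in OHT-treated PRC1CPM than PRC1CKO cells (6.68% of all). The 823 transcripts that fell in PRC1CKO cells had a median interaction of 0.35. The list's median was thus near that of falling transcripts in general and is not shown to be particular to these functions. Relative to the median of all transcripts, the list's median was 0.43, 0.27 and 0.48 in replicate numbers 1, 2 and 3. The 3 called were Bnip3 (0.75), a mitophagy receptor gene induced by low oxygen, Pdk1 (0.70), the kinase that holds pyruvate out of the citric acid cycle, and Tpi1 (0.61), a glycolytic enzyme gene. They were called in 6, 5 and 2 of the 12 fits without 1 library, and of the 3 only Pdk1 was also called by edgeR, by DESeq2 and with TMM. Bnip3 had 2942, 666 and 1826 in untreated and 1043, 362 and 532 in OHT-treated PRC1CKO libraries, and 3310.3, 919.8 and 2741 and 2066, 626 and 1723 in PRC1CPM libraries. The second replicate was the lowest of every condition, so that the ranges overlapped and the difference appears within replicate numbers. Its adjusted p was 0.010 from limma with the block and 1.0 without it.

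The core of the hypoxia response element, ACGTG, was searched on both strands of the 300 base windows at the deposited starts. It was in 14 of the 26 windows of the glycolysis and hypoxia list (53.8%), in 24.2% of the windows of all tested genes and in 19.6% of 32851 RefSeq promoters, and in 21.2% of the genes with a higher and 23.6% of those with a lower interaction. A match is a description and not a binding site. The Bnip3 promoter (chr7:138909457-138909756, minus strand, RefSeq, GRCm38.p6) is shown because it holds the palindrome CACGTG, which contains ACGTG on both strands and is marked by capitals.
Bnip3: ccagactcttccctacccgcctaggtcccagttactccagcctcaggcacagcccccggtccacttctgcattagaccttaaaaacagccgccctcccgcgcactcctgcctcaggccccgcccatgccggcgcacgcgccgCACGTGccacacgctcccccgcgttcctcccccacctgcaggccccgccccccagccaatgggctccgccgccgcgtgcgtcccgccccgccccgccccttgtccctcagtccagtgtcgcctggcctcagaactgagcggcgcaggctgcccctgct

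Of 71 cytosolic ribosomal protein genes and 25 cholesterol genes 0 were called in either direction by limma, with medians of 0.020 and -0.0027. Of 26 heat shock and stress genes 1 was called (3.85%, against 1.39% of all symbols below 0), Ddr2 (-1.27), a collagen receptor kinase, and of 9 clustered histone genes 1 (11.1%), Hist1h2aa (-0.94), which was not called with TMM. Of 37 cyclin-dependent kinase inhibitors and p53 targets 2 were called below 0 (5.41%, Cdkn2a and Cdkn1c). In all, 89 of the 220 symbols with a lower and 16 of the 66 with a higher interaction were in a list, and the others in none. Oxtr, Cbln2 and Ptges3 were not called, with interactions of 0.55, -0.03 and 0.16.

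The lines also differed by chromosome, before and after OHT. The median difference of PRC1CPM from PRC1CKO cells was 0.45 untreated and 0.42 after OHT on chromosome 11, 0.31 and 0.30 on chromosome 6 and -0.10 and -0.16 on chromosome 1, whereas on the other 17 chromosomes without Y it lay between 0.066 and 0.11 untreated and between 0.032 and 0.10 after OHT. On chromosome 11, 26.0% of the tested transcripts were called higher in untreated PRC1CPM cells, and on chromosome 6 15.7%, against 9.63% of all transcripts and 5.53% to 12.2% on the 17 others. The interaction, in which a constant difference cancels, had medians between -0.047 and 0.011 on every chromosome other than Y. Without chromosomes 1, 6, 11 and Y, 200 transcripts were called lower and 62 higher, 1.91% of those tested, the same share as over all of them.

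**Figure D5:**
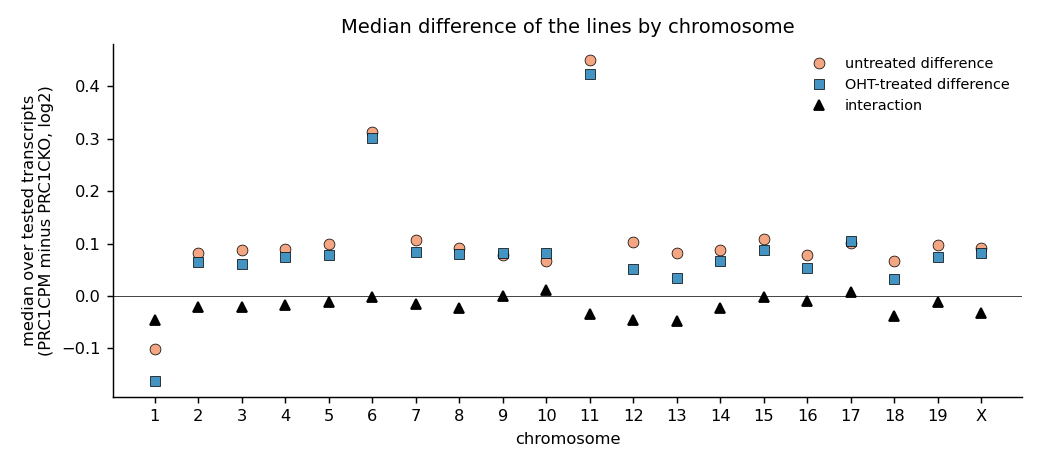
Median over the tested transcripts of each chromosome of the log2 difference of PRC1CPM from PRC1CKO cells before OHT (circles) and after OHT (squares), and of the interaction (triangles). Chromosome Y, with 5 tested transcripts, is not drawn. Among those drawn, chromosomes 11 and 6 lie above the others and chromosome 1 below in both states, while the interaction medians stay between -0.047 and 0.011.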

How the data were processed

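The authors removed rDNA reads (Bowtie 2), aligned the others to the joined mm10 and dm6 genomes (STAR, then Bowtie 2), kept unique alignments without duplicates (Sambamba) and counted them along 20633 transcripts. What the authors deposited is a normalised signal, in which each count is scaled by the Drosophila reads of its library and by the matching gDNA-seq ratio. All values (100%) were whole reads after rescaling, within 0.02 of a read, so reads could be recovered. The authors' own fold changes and adjusted p-values for 4 comparisons, and a gene list, were deposited too and were not used.

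Line, treatment and replicate number came from the labels. The study calls the replicates biological, and the sources used here do not say whether a number marks a shared day. Transcripts kept had 10 or more reads in 3 or more libraries, and their log2(signal + 1) was fitted with limma 3.58.1 (R 4.3.3), using 1 mean for each condition, the replicate number as a block and a mean-variance trend, and p-values were adjusted by Benjamini-Hochberg. The spread of each transcript came wholly from the trend, since the moderation found no variation around it. The values were not raw counts, for which edgeR 4.0.16 had been foreseen, so that edgeR and DESeq2 1.42.0 served as alternatives with recovered reads. The fit was run on simulated counts with 100 genes changed by 1 and 100 by 2 on the log2 scale. With a simulated replicate effect shared by number, it called 76 and 98 of them with the block and 11 and 94 without. Unchanged genes called were 7 and 0. Without that effect it called 84 and 100 either way, and 6 and 8 unchanged genes. The shared effect was put in, so the simulation cannot show whether the real replicates share one. Depth limits weak transcripts, whose fold changes depend on the pseudocount of 1.

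The members, gene lists and tests were chosen with earlier results of these data known. Named genes are the 15 lowest and 15 highest interactions called with the same sign in all 3 replicate numbers and at least 20 reads on average in 1 condition, the 5 largest in each class, up to 4 called members of each list (or its largest value if 0 were called), Ring1, Rnf2 and the example genes of the study. Some genes that meet this rule are not reported here. Alternatives were the block left out or nested in the line, edgeR, DESeq2, TMM, no gDNA-seq correction, median-centred libraries, no filter, pseudocounts of 0.1 and 10, an adjusted p under 0.05 alone or under 0.01, no trend, 1 transcript for each symbol, and each library or replicate number left out. Those added after seeing the data were robust or no moderation and edgeR, DESeq2, robust moderation and TMM without the block. Promoters are from RefSeq for GRCm38.p6, and windows were read at 16937 deposited starts. Python 3.11.15, numpy 2.4.6, pandas 2.3.3, scipy 1.17.1 and matplotlib 3.10.9 were used for summaries and plots.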

Additional observations from a re-analysis of the deposited data

Results flagged for a closer look

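The interaction is itself a test of whether the response to OHT differs between the lines, and 246 transcripts below 0 and 78 above 0 were flagged because that test passed. Among them, 2 genes were called in opposite directions in the lines. Nags, which encodes the mitochondrial enzyme that makes the activator of the urea cycle, fell in PRC1CKO cells (-0.78) and rose in PRC1CPM cells (0.76), with an interaction of 1.54 (limma, adjusted p = 0.026). Loxhd1, a gene of inner ear hair cells, fell by 0.96 on the log2 scale in PRC1CKO cells and rose by 1.11 in PRC1CPM cells, with an interaction of 2.07 (limma, adjusted p = 0.021). Each was called in 4 of the 12 fits that left out 1 library and neither without the replicate block, and Loxhd1 had at most 52.1 normalised reads in any library.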

How the results depend on the processing

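The replicate block and the estimate of the spread decided most calls. Without the block limma called 4 transcripts lower and 0 higher (1 lower in the untreated-only class and 0 in the other classes of 1 state), edgeR 4 and 0 (524 at an unadjusted p under 0.05), DESeq2 15 and 0 (544), limma with robust moderation 2 and 0 (494), and limma with TMM 14 and 0 (8 untreated only and 1 OHT only among the lower, 0 in either among the higher, 1353 at an unadjusted p). The 114 named genes include some not called in the main fit, such as Hoxc11, Ring1 and Rnf2. Without the block 95 lost their call, and only Ebf2, Mecom and Grb10 kept it. Under the block 46 lost it with TMM, 35 in DESeq2, 26 without the gDNA-seq correction and 11 in edgeR. With the block, 0 were called in either direction without the trend (1303 at an unadjusted p) or without moderation (1063). TMM gave 146 lower (77 of them untreated only), and median-centred libraries 124. Without the gDNA-seq correction there were 123 lower (53 untreated only and 29 OHT only) and 2860 higher (444 and 753). No filter gave 101 and 33, an adjusted p under 0.01 gave 139 and 33, and a pseudocount of 10 put 79 of the lower in the OHT-only class. The causes were not tested. Kept within 1.5 times were the counts with the block nested in the line (211 and 60), DESeq2 (177 and 57), edgeR (266 and 77), robust moderation (245 and 81), pseudocounts of 0.1 (229 and 70) and 10 (247 and 79), and 1 transcript for each symbol (215 and 61), and no called gene changed sign.

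Leaving out single libraries gave 106 to 379 lower (68 to 261 untreated only, 13 to 55 OHT only) and 16 to 151 higher (4 to 31 and 7 to 78). The lower count moved by over 1.5 times without PRC1CKO untreated replicates 1 (379) and 3 (156), PRC1CKO OHT replicates 1 (111) and 3 (106), PRC1CPM untreated replicate 2 (127) or PRC1CPM OHT replicate 1 (146). The higher count did so without PRC1CKO untreated replicate 2 (35), PRC1CKO OHT replicates 1 (16) and 2 (151), PRC1CPM untreated replicates 1 (49), 2 (44) and 3 (44), or PRC1CPM OHT replicates 1 (28) and 3 (34). Leaving out replicate numbers gave 46 to 294 lower (30 to 200, 8 to 36) and 15 to 61 higher (7 to 13, 6 to 40).

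On the pairing, deviations from the condition means correlated at 0.0988 to 0.438 over 18 pairs with the same replicate number and at -0.26 to 0.0275 over 36 others, and 12 of 12 libraries correlated best with their own number. All 18 same-number pairs were above 0 (mean 0.20), against 2 of the 36 others (mean -0.10). The deviations thus went with the replicate number, weakly in some pairs. The labels name no shared batch, so what a number marks is not known, and the block stands because the contrast was defined with it. Over all alternatives the number called higher in PRC1CPM cells ranged from 340 to 2075 untreated and from 212 to 2350 after OHT, and the number called lower from 75 to 903 and from 31 to 365.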

Other observations

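Of 5 Y-linked transcripts tested, 3 were higher in PRC1CPM cells in both states, with untreated differences of 2.93 for Ddx3y, an RNA helicase gene, 3.35 for Uty, a histone demethylase homologue, and 5.02 for Kdm5d, an H3K4 demethylase gene, while Eif2s3y (0.19) and Usp9y (0.46) differed less. Uty had 164, 169 and 217 normalised reads in the untreated PRC1CKO libraries and 1750, 1988 and 1864 in the untreated PRC1CPM libraries. In PRC1CKO cells after OHT it had 123, 96.3 and 190 and in PRC1CPM cells 1505, 1417 and 1493, without overlap between the lines.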
